A study of Homo sapiens and Mus musculus with 20 samples.

Results

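Chromatin accessibility was examined at 9 genes of the epithelial tight junction in SW480 cells, an established human colorectal adenocarcinoma line, after sodium propionate (NaPr) or sodium butyrate (NaBu). The genes were the claudins CLDN1, CLDN3, CLDN4, CLDN7, CLDN12 and CLDN23, the occludin gene OCLN, and the genes of the plaque proteins ZO-1 (TJP1) and cingulin (CGN). ATAC-seq, in which the Tn5 transposase cuts open chromatin, had been performed with 50000 viable cells per reaction on 3 libraries treated with 10 mM NaPr and 3 untreated libraries of that experiment (0 mM), and on 3 libraries treated with 1 mM NaBu and 3 untreated libraries of a second experiment, whose labels carry another date (0 mM). Treatment lasted 12 to 16 h, the labels give EMEM with serum as the medium (the study's methods also list a glucose-free EMEM), and no genetic change was introduced. Peak intervals of the 12 libraries were merged into 252173 regions, and every region that overlapped a gene body or the 20 kb on either side was taken, which gave 132 regions, 1 of them in the windows of both CLDN3 and CLDN4. The nearest start of a protein-coding gene belonged to 1 of the 9 genes for 98 of the 132 regions, and 27 regions had their highest summit within 1 kb of a coding start.

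Tight junctions seal the space between neighbouring epithelial cells. Claudins and occludin cross the membrane and meet their partners on the next cell, and claudins set which ions pass between cells. ZO-1 and cingulin lie beneath the membrane, where ZO-1 ties the claudins to the actin cytoskeleton. In the colon this belt limits the leak of luminal bacteria and their products between the cells. Butyrate and propionate are short-chain fatty acids released by gut bacteria from dietary fiber, and both are known inhibitors of histone deacetylases.

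Per library, 112145 to 144398 peak intervals were listed for the NaPr and 108442 to 128955 for the NaBu experiment. Each list stopped at peak number 300000, so the weakest peak listed had a −log10 p between 3.37 and 9.38. As a measure of depth, the average number of tags covering a position of the genome was solved from the lists, and it ranged from 0.936 to 2.35 in the NaPr experiment and from 2.11 to 3.03 in the NaBu experiment. Promoters of 7 of 8 colon epithelial marker genes, EPCAM, CDH1 and CDX2 among them, had a peak in all 12 libraries, and KRT20 had one in 3. Promoters of PTPRC and CD3E, which mark leukocytes, had no peak in any library. A peak in all 12 libraries was found for 2 of 6 fibroblast markers (COL1A1 and COL1A2), the monocyte marker CD14 and 0 of 4 endothelial markers. The labels did not state that replicates came from separate cultures, so p-values measure the spread between libraries.

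Accessibility is given as a percentile rank, the place of a region's highest −log10 p among all regions tested in that library, from 0 (no peak listed) to 100 (the strongest). Changes are treated minus untreated means in percentile points with the standard error (SE) from limma, n = 3 and 3, and regions with an adjusted p below 0.05 over all regions tested were called higher or lower. A listed peak had a rank of at least 15.5 to 26.1 depending on the library, so small changes near the detection limit appear as large steps. After NaPr, 6 of the 86 tested regions at the tight junction genes were higher (6.98%) and 9 were lower (10.5%). Over all 124067 regions tested, 4.54% were higher and 3.97% were lower. After NaBu, 15 of 88 tested regions were higher (17%) and 17 were lower (19.3%), beside 19.7% and 17.2% of all 123730 regions tested. The median change at the tight junction genes was 0.066 points after NaPr and −0.33 after NaBu, and over all regions it was 0.025 and 0.699. All treated libraries ranked above all untreated ones in 11 of 86 regions after NaPr, and below in 18. Over all 124067 regions these counts were 17794 and 17183. After NaBu they were 20 and 26 of 88, and 31282 and 27211 of all 123730. Separate groups at a called region are therefore no further support for its call.

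Few regions switched between no peak and a peak in every library of a group. With NaPr 1 region showed peaks in the 3 treated libraries alone, 1.16% of those tested, and 2.95% of all regions did so. The reverse held for 3 regions, or 3.49%, beside 1.5% of all regions. In the NaBu experiment 4 regions appeared (4.55%, with 6.41% over all regions) and 5 disappeared (5.68%, with 3.72% over all regions). The 5 that disappeared were short, with a median length of 193 bases (112 to 669). The median was 748.5 bases for the 4 that appeared and 1059 for the other 23 called regions. The number of regions with a peak was 77, 73 and 66 in the untreated and 74, 75 and 75 in the NaPr-treated libraries (exact permutation p = 0.7, two-sided). It was 74, 80 and 79 in the untreated and 77, 82 and 75 in the NaBu-treated libraries (exact permutation p = 1, two-sided; the smallest p possible is 0.1). Leaving out any 1 of the 3 NaPr-treated libraries left 0 regions called by limma at these genes or elsewhere. In those fits 28737 to 29641 of all regions had an unadjusted p below 0.05, beside 31313 with all 6 libraries. Leaving out untreated replicate 2 or 3 left 1 higher and 0 lower calls at these genes, and leaving out untreated replicate 1 left 5 and 2. Whether the smaller number of libraries alone lowered these counts was not tested.

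**Figure D1:**
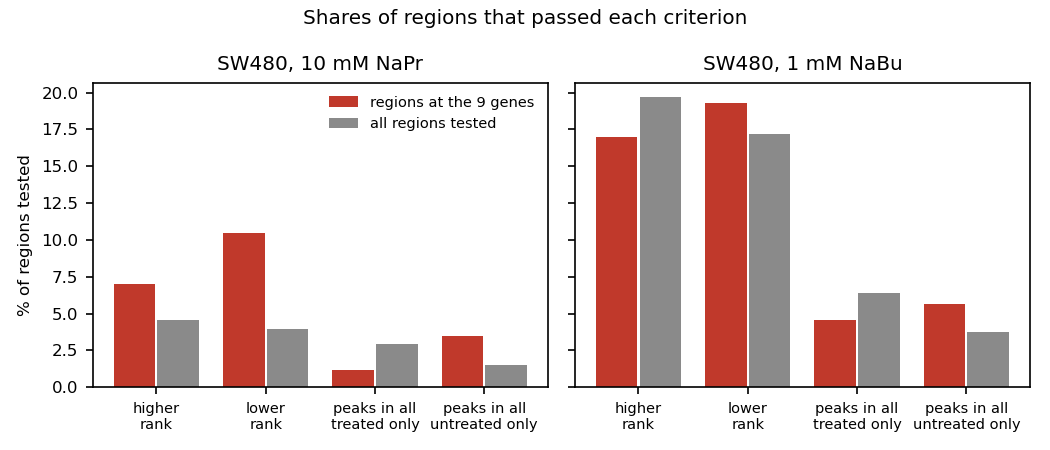
Percentage of tested regions with a higher or lower rank at an adjusted p below 0.05 (limma), and with peaks in all treated or all untreated libraries only, at the 9 tight junction genes (red bars) and over all regions tested (grey bars). At these genes 10.5% were lower after NaPr beside 3.97% of all regions, and after NaBu 19.3% beside 17.2%. After NaPr 4 of 22 tested regions within 1 kb of a coding start were lower, and 5 of 64 farther away. Of the promoter regions of all coding genes 9.2% were lower after NaPr.

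The sequences below give the bases under the largest called change at CLDN1, CLDN3, CLDN4, CLDN12, TJP1 and CGN (200 bases around the highest summit), and the 250 bases before the start of the called promoters of CLDN3 and CGN. OCLN had no called region, the windows of CLDN7 and the promoters of CLDN7 and TJP1 overlap annotated untranslated exons, and these and the sequences of CLDN23 are not shown. They are reference sequence of GRCh38, with the promoters from RefSeq (GRCh38.p14), written 5′ to 3′ in lower case. Capitals mark matches to 6 short motifs sought on both strands: AP-1 (TGACTCA), E-box (CACCTG), grainyhead-like (AACCNGGTT), SP/KLF (GGGCGG), CRE (TGACGTCA) and TEAD (GGAATG).
CLDN1, first intron, plus strand at chr3:190321051-190321250: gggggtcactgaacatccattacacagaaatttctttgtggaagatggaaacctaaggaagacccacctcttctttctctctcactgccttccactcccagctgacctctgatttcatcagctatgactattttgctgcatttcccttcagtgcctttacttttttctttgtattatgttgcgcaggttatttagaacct
CLDN3 and CLDN4, between the genes, plus strand at chr7:73787420-73787619: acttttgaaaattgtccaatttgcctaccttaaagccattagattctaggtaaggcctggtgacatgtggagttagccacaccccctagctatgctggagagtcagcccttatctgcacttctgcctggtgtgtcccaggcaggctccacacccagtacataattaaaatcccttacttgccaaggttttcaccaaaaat
CLDN4, upstream of the gene, plus strand at chr7:73792726-73792925: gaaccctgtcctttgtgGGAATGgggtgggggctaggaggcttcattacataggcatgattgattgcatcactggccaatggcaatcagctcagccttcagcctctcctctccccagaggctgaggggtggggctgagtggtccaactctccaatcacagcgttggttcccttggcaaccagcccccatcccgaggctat
CLDN12, intron, plus strand at chr7:90411657-90411856: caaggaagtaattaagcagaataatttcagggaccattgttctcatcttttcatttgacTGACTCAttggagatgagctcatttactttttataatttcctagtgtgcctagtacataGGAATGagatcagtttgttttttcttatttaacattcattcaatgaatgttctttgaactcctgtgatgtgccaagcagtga
TJP1, intron, plus strand at chr15:29849843-29850042: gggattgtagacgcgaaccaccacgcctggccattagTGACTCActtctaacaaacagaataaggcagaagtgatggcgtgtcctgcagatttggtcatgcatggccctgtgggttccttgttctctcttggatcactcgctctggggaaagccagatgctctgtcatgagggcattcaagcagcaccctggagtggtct
CGN window, TUFT1 intron, plus strand at chr1:151548937-151549136: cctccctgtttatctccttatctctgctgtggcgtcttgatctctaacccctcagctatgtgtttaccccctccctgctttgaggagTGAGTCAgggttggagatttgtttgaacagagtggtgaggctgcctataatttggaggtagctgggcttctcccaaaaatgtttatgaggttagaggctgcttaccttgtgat
CLDN3 promoter, minus strand at chr7:73770271-73770520: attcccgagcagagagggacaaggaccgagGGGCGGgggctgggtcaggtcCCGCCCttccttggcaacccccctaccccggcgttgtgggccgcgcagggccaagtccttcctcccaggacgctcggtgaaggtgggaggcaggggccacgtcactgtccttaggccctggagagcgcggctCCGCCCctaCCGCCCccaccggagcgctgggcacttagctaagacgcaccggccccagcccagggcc
CGN promoter, plus strand at chr1:151511137-151511386: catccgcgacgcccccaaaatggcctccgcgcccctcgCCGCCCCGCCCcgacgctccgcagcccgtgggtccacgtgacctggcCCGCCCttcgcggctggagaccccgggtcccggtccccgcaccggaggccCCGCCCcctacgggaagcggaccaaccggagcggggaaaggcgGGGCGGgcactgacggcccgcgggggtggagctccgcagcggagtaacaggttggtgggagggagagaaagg
An AP-1 match lay in the windows of CLDN12, TJP1 and the CGN window, and a TEAD match in those of CLDN4 and CLDN12. The windows of CLDN1 and of the region between CLDN3 and CLDN4 held none of the 6 motifs. The promoter of CLDN3 had 4 SP/KLF matches and that of CGN had 5, adjoining or overlapping ones counted singly, and 42.6% of 35116 RefSeq promoter windows of that length held at least 1.

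All 9 promoter regions, the region nearest the canonical start and within 1 kb of it, had a peak in all 12 libraries. None was called higher by percentile rank after either compound, but by fold enrichment CLDN1 was called higher after NaBu (below). After NaPr 2 of 9 were lower, CLDN7 and CGN, and after NaBu 4 of 9 were lower, CLDN3, CLDN7, CLDN23 and TJP1. Promoters of coding genes in general were called lower more often than higher. Of 13474 tested after NaPr, 1.09% were higher and 9.2% lower, and of 13124 tested after NaBu, 6.55% were higher and 26.3% lower. By percentile rank the promoters of CLDN1, CLDN4, CLDN12 and OCLN were called in neither experiment, but by fold enrichment CLDN4 was called lower after NaBu (below).

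**Figure D2:**
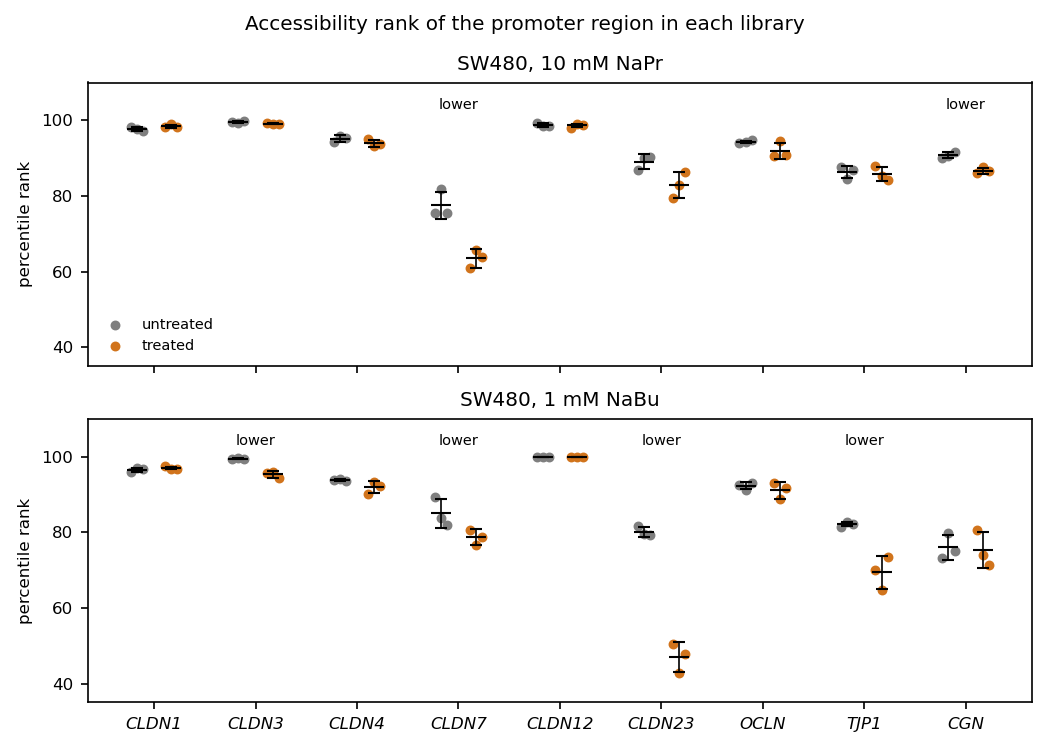
Percentile rank of the promoter region of each gene in every SW480 library (points; axis from 35), with mean and SD of 3 libraries (bars), untreated in grey and treated in orange, for 10 mM NaPr (top) and 1 mM NaBu (bottom). The treated CLDN23 points at 42.8 to 50.4 stand below all others, and the word lower marks an adjusted p below 0.05.

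CLDN7 had only lower calls, 3 of 10 tested regions after NaPr and 4 of 9 after NaBu. Claudin-7 is found along the lateral membrane of colon epithelium and binds EpCAM. Its promoter region at chr17:7262195-7263579 covers the canonical start and part of the first exon. Its ranks were 75.5, 81.7 and 75.5 in the untreated and 60.8, 65.6 and 63.9 in the NaPr-treated libraries. All treated libraries lay below all untreated ones, and the rank fell by 14.1 points (SE 3.17, adjusted p = 0.0292). In the NaBu experiment the ranks were 89.3, 83.9 and 81.9 untreated and 80.7, 76.6 and 78.7 treated. Again the groups did not overlap, and the rank fell by 6.35 points (SE 2.097, adjusted p = 0.0474). The call after NaBu was lost in 12 of 17 alternative settings, and that after NaPr in 10.

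The neighbouring region at chr17:7260718-7262042, whose highest summit lies 1351 bases into CLDN7 in a transcribed untranslated part, moved further after NaBu. Ranks of 76.1, 75.4 and 71.6 in untreated libraries became 30.9, 24.96 and 38.2 with NaBu. The rank thus fell by 43.0 points (SE 4.75, adjusted p = 0.000819), with a peak still listed in every treated library. With NaPr the ranks went from 88.8, 83.1 and 85.3 to 73.6, 78.4 and 77.7, and the rank fell by 9.16 points (SE 2.07, adjusted p = 0.0294). The groups were separate in both experiments. Another annotated CLDN7 start lies 18 bases from this summit.

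The remaining calls in the CLDN7 window were at the start of GABARAP, an autophagy gene some 20 kb away, and not at CLDN7. The largest was the loss of a peak of 112 bases at chr17:7241522-7241633, with ranks of 54.4, 39.3 and 51.4 in untreated libraries and no peak in the 3 NaBu-treated ones (adjusted p = 0.00125). It lies 143 bases from a longer region whose rank fell by 16.5 points. After NaPr the region at chr17:7242705-7243541 fell by 15.3 points (SE 4.10, adjusted p = 0.0492), the largest change called in this window for that compound; with a peak required in every library it fell by 26.7 points (adjusted p = 0.027), and on log2 fold enrichment it was not called (adjusted p = 0.426). Ranked by fold enrichment, the lost peak of 112 bases fell by 25.5 points (adjusted p = 0.00366).

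CLDN23 had the largest promoter change of the 9 genes, after NaBu. Claudin-23 is encoded by an intronless gene. The promoter region at chr8:8701174-8702363 had ranks of 81.6, 79.4 and 79.3 in the untreated and 50.4, 42.8 and 47.8 in the NaBu-treated libraries. Every treated value was below every untreated value, and the rank fell by 33.1 points (SE 3.23, adjusted p = 0.000569). Fold enrichment at its summit, the peak height over local background, was 14.3 ± 1.31 (SD, n = 3) untreated and 7.02 ± 0.428 (SD, n = 3) treated, and the call held in all 17 alternatives. In the NaPr experiment the ranks were 86.9, 90.1 and 90.3 untreated and 79.3, 82.9 and 86.4 treated, a change of −6.19 points that missed the threshold (SE 1.85, adjusted p = 0.0674).

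A second CLDN23 region, 21.6 kb past the start at chr8:8722743-8723980, was lower in both experiments. It overlaps an exon of a noncoding gene. NaPr-treated libraries ranked 64.8, 66.4 and 54.3 and their untreated libraries 75.7, 80.6 and 80.1, and the rank fell by 16.9 points (SE 3.81, adjusted p = 0.0292). NaBu-treated libraries ranked 52.8, 50.5 and 51.4 and their untreated libraries 74.4, 61.6 and 75.7, and the rank fell by 19.0 points (SE 4.44, adjusted p = 0.0129). Neither set of groups overlapped. After NaPr this region fell by 29.9 points with a peak required in every library (adjusted p = 0.0142), and on log2 fold enrichment it was not called (adjusted p = 0.0624). CLDN23 had 0 higher calls among the 3 regions tested in each experiment.

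CLDN3 and CLDN4 lie next to each other on chromosome 7, and both encode barrier-forming claudins that serve as receptors for the enterotoxin of Clostridium perfringens. After NaBu the CLDN3 promoter was lower while 3 regions between the genes were higher. The promoter at chr7:73769643-73771372 was among the strongest of all regions, with ranks of 99.4, 99.6 and 99.4 untreated and 95.5, 96.1 and 94.4 treated. The groups did not overlap, the rank fell by 4.14 points (SE 0.510, adjusted p = 0.00117), and the summit fold enrichment was 17.3 ± 0.650 (SD, n = 3) without and 13.7 ± 0.900 (SD, n = 3) with NaBu. After NaPr the promoter ranked 99.3, 99.1 and 99.0, against 99.7, 99.4 and 99.7 without it, and was not called (adjusted p = 0.579).

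Of the higher regions between the genes, the one closest to CLDN3, at chr7:73777968-73779423, had no peak in untreated libraries and ranks of 16.97, 24.9 and 34.96 with NaBu (adjusted p = 0.0209). These ranks are near the lowest that a listed peak can have. The region shared by both windows, at chr7:73787096-73787760, ranked 36.5, 44.5 and 28.0 untreated and 65.3, 76.2 and 77.2 with NaBu, a rise of 36.5 points (SE 5.68, adjusted p = 0.00273). The third, at chr7:73792313-73793359, ranked 23.7 and 29.6 in untreated replicates 1 and 2, had no peak in replicate 3, and ranked 75.4, 82.0 and 74.3 with NaBu. Its rise of 59.5 points (SE 7.92, adjusted p = 0.00154) was the largest called at CLDN4. In the NaPr experiment these last 2 regions had a peak in 1 of 3 untreated and in all 3 treated libraries, and neither passed the test (changes of 41.7 and 40.7 points, adjusted p = 0.0577 and 0.112).

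**Figure D3:**
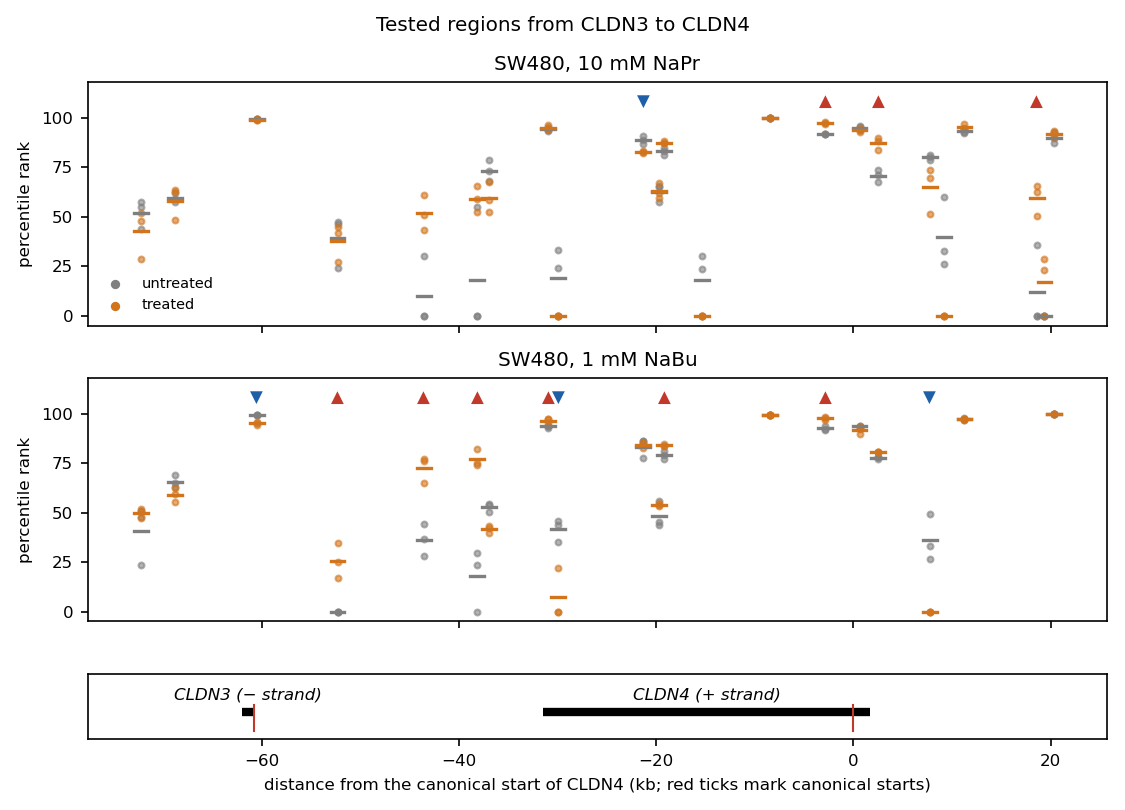
Percentile rank of each region tested between CLDN3 and CLDN4 and 20 kb beyond, against distance from the canonical start of CLDN4 (kb), with points for libraries and bars for means of 3 libraries (grey untreated, orange treated). Red and blue triangles mark regions called higher and lower; after NaBu, 3 higher calls in a row follow the lower call at the CLDN3 promoter, and 0 on the axis is no listed peak.

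In the whole CLDN4 window, which takes in part of the space towards CLDN3 and part of METTL27, 3 regions were higher and 1 lower of 19 tested after NaPr, and 5 were higher and 2 lower of 15 after NaBu. By percentile rank the promoter at chr7:73830679-73832557 was called in neither. Its fold enrichment was 5.92 ± 0.284 untreated and 5.38 ± 0.237 with NaPr, and 5.14 ± 0.121 untreated and 4.54 ± 0.254 with NaBu (SD, n = 3 each). Ranked by fold enrichment, it was called lower after NaBu by 14.5 points (limma adjusted p = 0.0206) and not called after NaPr (adjusted p = 0.265). On log2 fold enrichment it was not called after NaBu (adjusted p = 0.253). The region at chr7:73827595-73828653, which has its summit 2580 bases before the canonical start and 242 bases from another CLDN4 start, was higher in both experiments. Its ranks were 91.7, 92.1 and 91.8 untreated and 97.5, 96.9 and 97.8 with NaPr, a rise of 5.52 points (SE 0.657, adjusted p = 0.00461). In the NaBu experiment they were 92.5, 91.8 and 93.7 untreated and 96.9, 98.3 and 98.0 treated, a rise of 5.05 points (SE 0.641, adjusted p = 0.0013). Both sets of groups were separate.

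The largest call at CLDN4 after NaPr lay 18.5 kb past its start, at chr7:73849414-73849754, nearer to METTL27. It had no peak in untreated replicates 1 and 2, a rank of 35.8 in replicate 3, and 65.5, 50.2 and 62.7 in the treated libraries (rise of 47.5 points, SE 12.0, adjusted p = 0.0416). Ranked by fold enrichment the rise was 26.7 points and not called (adjusted p = 0.241). A region inside METTL27 at chr7:73838394-73839062 had ranks of 33.0, 49.5 and 26.7 in untreated libraries and no peak in any NaBu-treated library (adjusted p = 0.00709). Its neighbour at chr7:73839951-73840339 ranked 32.8, 60.2 and 26.4 in the untreated libraries of the NaPr experiment and had no peak after NaPr, and it missed the threshold (adjusted p = 0.0673). Both lie in the gene body of METTL27, on the far side of CLDN4 from CLDN3.

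CLDN1, which encodes a barrier claudin, had no limma call among 3 tested regions after NaPr (0 at an unadjusted p below 0.05). Its promoter at chr3:190321666-190322755 ranked 98.2, 97.8 and 97.2 untreated and 98.3, 98.9 and 98.2 with NaPr. It ranked 95.9, 96.9 and 96.8 untreated and 97.4, 96.7 and 96.8 with NaBu. By percentile rank it was called in neither experiment (adjusted p = 0.409 and 0.469). Its fold enrichment was 11.9 ± 0.148 untreated and 14.9 ± 0.647 with NaBu (SD, n = 3 each). Ranked by fold enrichment, it was called higher after NaBu by 8.16 points (limma adjusted p = 0.018) and not called after NaPr (adjusted p = 0.807). On log2 fold enrichment it was also called higher after NaBu (adjusted p = 0.0197) and not called after NaPr (adjusted p = 0.911). After NaBu 2 short peaks in the first intron were lost. One of 214 bases at chr3:190321097-190321310 ranked 33.1, 69.7 and 60.1 in untreated libraries, and another of 193 bases at chr3:190319776-190319968 ranked 46.8, 50.5 and 43.7; neither had a peak with NaBu (adjusted p = 0.00403 and 0.000875). The first fell by 54.3 points, and by 27.4 points where regions were ranked by fold enrichment (adjusted p = 0.00348).

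The first of these lost CLDN1 peaks was 355 bases from the promoter region, which was not called by percentile rank. None of the 6 libraries of the NaPr experiment had a peak at either place, so they were tested for NaBu only. Past the gene's end, at chr3:190303947-190304428, the rank rose from no peak, 27.3 and 30.2 to 56.4, 64.2 and 54.7 with NaBu (39.3 points, SE 8.57, adjusted p = 0.00991). Every treated library was above every untreated one there.

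CLDN12 had 0 limma calls of 13 tested regions after NaPr (1 at an unadjusted p below 0.05) and 2 higher calls of 11 after NaBu. Claudin-12 lacks the carboxy-terminal motif by which most claudins bind ZO-1. Its promoter at chr7:90402984-90404183 was called in neither experiment (changes of −0.105 with SE 0.542 and −0.00768 with SE 0.302, adjusted p = 0.94 and 0.987), but its ranks lay between 98.1 and 99.9, near the ceiling of 100, where a rank can show little change. Fold enrichment was 19.4 ± 1.06 untreated and 19.9 ± 1.52 with NaPr, and 23.3 ± 0.652 untreated and 23.1 ± 0.281 with NaBu (SD, n = 3 each). The region at chr7:90411196-90411976, with its summit in an intron 8296 bases past the start, ranked 39.7, 22.5 and 26.1 untreated and 68.2, 72.8 and 64.1 with NaBu. The groups stood apart, by 38.9 points (SE 5.79, adjusted p = 0.00233). It had a peak in 1 of the 6 libraries of the NaPr experiment and was not tested there.

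OCLN encodes occludin, a membrane protein of the MARVEL family, and had no region called by limma among 3 tested after NaPr and 5 after NaBu (1 and 0 at an unadjusted p below 0.05). The promoter at chr5:69492182-69494273 ranked 94.1, 94.2 and 94.7 untreated and 90.6, 94.4 and 90.8 with NaPr. It ranked 92.5, 91.3 and 93.2 untreated and 93.1, 88.7 and 91.7 with NaBu. The groups overlapped in both (adjusted p = 0.193 and 0.443). The largest change at OCLN was 26.4 points after NaBu in an annotated untranslated exon, with a peak in 2 of 3 treated libraries and no untreated one (adjusted p = 0.113). The annotation holds a pseudogene copy of OCLN on chromosome 5, and reads that match both could have been lost or split by the authors' alignment.

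TJP1, which encodes the scaffold ZO-1, had the longest window and changes in both directions. After NaPr 3 of 20 tested regions were higher and 1 lower, and after NaBu 5 of 19 were higher and 2 lower. The promoter of the canonical transcript at chr15:29821419-29823333 ranked 87.6, 84.5 and 86.7 untreated and 87.9, 85.2 and 84.3 with NaPr, values that overlapped (adjusted p = 0.885). In the NaBu experiment it ranked 81.5, 82.7 and 82.3 untreated and 69.9, 64.8 and 73.5 treated, and the rank fell by 12.8 points (SE 2.41, adjusted p = 0.00563). All treated libraries lay below all untreated ones, and fold enrichment was 10.5 ± 0.360 and 7.68 ± 0.496 (SD, n = 3 each).

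Beside this promoter, a peak of 145 bases at chr15:29820848-29820992 ranked 26.2, 67.9 and 61.4 in untreated libraries and was absent with NaBu (adjusted p = 0.0078). Away from it, regions within the introns of TJP1 gained peaks. The region at chr15:29849346-29850230, whose summit lies 27.5 kb before the canonical start, had no peak in the untreated libraries and ranks of 56.8, 63.1 and 73.3 with NaBu (rise of 64.4 points, SE 5.91, adjusted p = 0.000491), the largest change at the 9 genes after NaBu. The one at chr15:29835349-29835678 also had no untreated peak and ranked 46.4, 21.0 and 34.2 with NaBu (adjusted p = 0.011). Past the end of the gene, at chr15:29698174-29698785, untreated libraries had no peak and NaBu-treated ones ranked 37.2, 46.2 and 40.8 (adjusted p = 0.0016).

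Higher ranks in both experiments were found at chr15:29924579-29926119, in a TJP1 intron 103.6 kb before the canonical start. The ranks were 73.4, 70.9 and 69.4 untreated and 79.5, 82.4 and 82.1 with NaPr (rise of 10.1 points, SE 2.21, adjusted p = 0.027). They were 62.3, 69.1 and 65.0 untreated and 79.5, 82.2 and 79.5 with NaBu (rise of 14.9 points, SE 2.39, adjusted p = 0.00304). Treated and untreated libraries did not overlap in either. The largest TJP1 call after NaPr was a loss at chr15:29765151-29765948, 57.1 kb past the start in an intron, with ranks of 61.4, 56.1 and 58.1 untreated and no peak in the 3 treated libraries (adjusted p = 0.0112). No region of TJP1 was lower in both experiments.

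CGN encodes cingulin, a plaque protein that binds ZO-1 and myosin, and had 3 lower and 0 higher calls of 11 after NaPr and 4 lower and 1 higher of 14 after NaBu. The promoter at chr1:151510983-151512246 ranked 90.0, 90.7 and 91.6 untreated and 86.0, 87.6 and 86.5 with NaPr, and the rank fell by 4.05 points with no overlap (SE 1.02, adjusted p = 0.0412). In the NaBu experiment it ranked 73.2, 79.7 and 75.1 untreated and 80.7, 73.9 and 71.3 treated, and the groups overlapped (adjusted p = 0.867). The NaPr call was lost in 12 of 17 alternatives.

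Upstream of CGN, at chr1:151502639-151503393, ranks were lower in both experiments. They were 81.5, 83.7 and 83.0 untreated and 68.0, 68.7 and 70.6 with NaPr, and the rank fell by 13.7 points (SE 2.13, adjusted p = 0.00969). They were 57.9, 51.0 and 46.7 untreated, treated replicates 2 and 3 with NaBu ranked 29.4 and 20.8 and replicate 1 had no peak, and the rank fell by 35.2 points (SE 8.22, adjusted p = 0.0129). Each treated library was below each untreated one. This is the largest CGN call after NaBu.

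Inside the first intron of CGN, 3 adjoining regions between chr1:151512407 and chr1:151514641 were lower after NaBu, the strongest of them from ranks of 95.3, 96.6 and 96.4 to 86.5, 85.0 and 90.6 (the rank fell by 8.77 points, SE 1.36, adjusted p = 0.00271). No library of the NaPr experiment had a peak in any of the 3, whether treated or not. The libraries of the 2 experiments carry different dates in their labels, so date and experiment cannot be told apart and their untreated libraries were not compared. Further away, in an intron of TUFT1, a peak at chr1:151548807-151549094 ranked 42.1, 46.8 and 36.4 untreated and was absent in the 3 NaPr-treated libraries (adjusted p = 0.036), the largest CGN call for NaPr, which ranking by fold enrichment did not call (adjusted p = 0.0729). A region 11.3 kb before the CGN start, at chr1:151500031-151500372, had a peak in the 3 NaPr-treated libraries (ranks 40.4, 28.2 and 45.2) and in no untreated one, and missed the threshold (adjusted p = 0.0522).

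**Figure D4:**
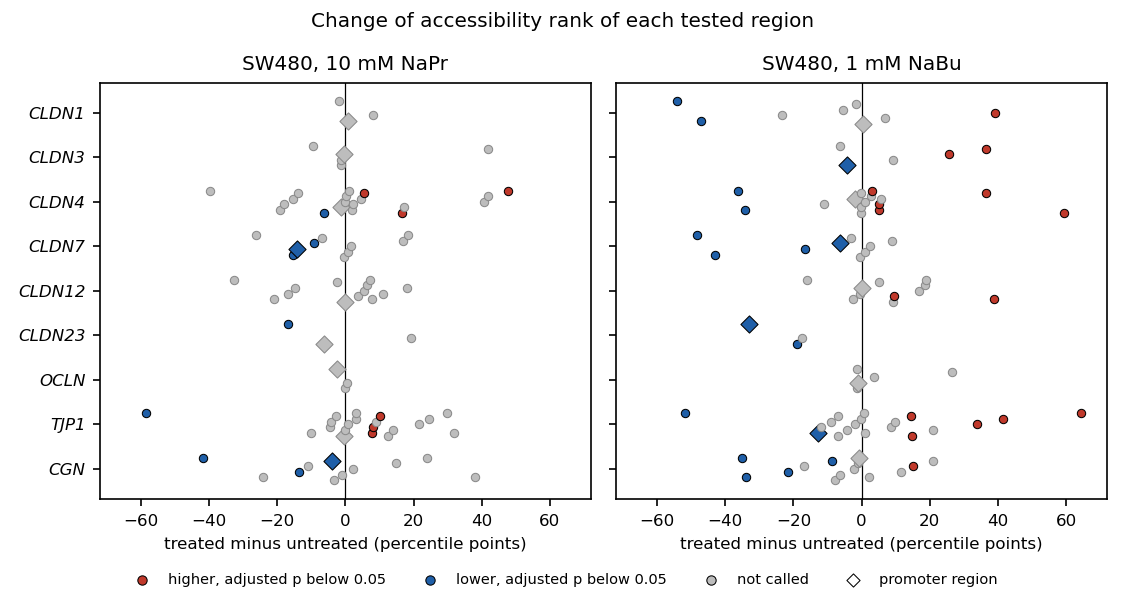
Treated minus untreated rank (percentile points) of every tested region by gene for 10 mM NaPr (left) and 1 mM NaBu (right); circles are regions, diamonds promoter regions, red and blue mark calls higher and lower at an adjusted p below 0.05, and the region shared by CLDN3 and CLDN4 is drawn for both. CLDN7 and CLDN23 have blue calls only, CLDN12 red calls only and OCLN none, while CLDN1, CLDN3, CLDN4, TJP1 and CGN have both colors in 1 or both panels.

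In all, 6 regions were called in the same direction in both experiments and 0 in opposite directions. They were the higher regions of CLDN4 and TJP1 and the lower regions of CGN, CLDN23 and CLDN7 (2 regions) described above. These are 40% of the 15 calls after NaPr and 18.8% of the 32 calls after NaBu. Ranked by fold enrichment, 0 higher and 2 lower regions were shared (those of CGN and CLDN23), with the replicate block 1 and 0, and on log2 fold enrichment none (limma). Over all regions 5472 were called alike, 51.8% of the 10555 NaPr calls and 12% of the 45682 NaBu calls. Opposite calls were rare there too, at 148. Doses differed between the compounds, 10 mM NaPr and 1 mM NaBu, so the sizes of their changes are given side by side and are not compared.

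**Figure D5:**
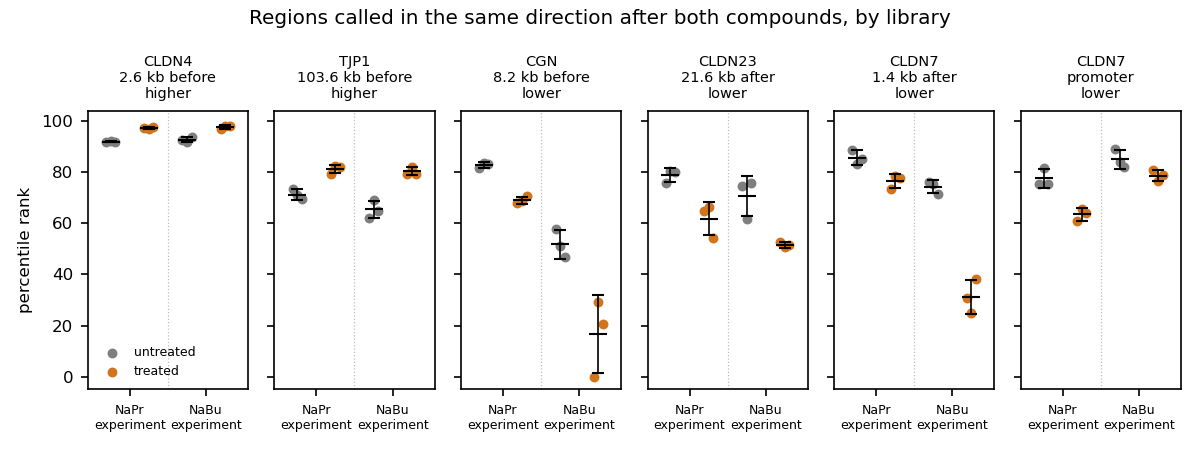
Percentile rank in each of the 12 libraries for the 6 regions called in the same direction in both experiments, named by gene and distance from its canonical start, with mean and SD of 3 libraries (bars), untreated in grey and treated in orange. In every panel the treated points of an experiment lie wholly above or below its untreated points. The regions were selected by their calls, so this separation is no further support. Ranked by fold enrichment, 2 of the 6 (CGN and CLDN23) were called in both.

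Among the called regions a gene of the set was the nearest coding start for 12 of 15 after NaPr and 27 of 32 after NaBu. AP-1 matches lay in 2 of 6 higher and 1 of 9 lower regions after NaPr, and in 5 of 15 higher and 1 of 17 lower regions after NaBu. Over all called regions the AP-1 shares were 29.3% of higher and 7.56% of lower after NaPr, and 21.8% and 12% after NaBu. E-box matches lay in 1 of 6 higher and 4 of 9 lower regions after NaPr and in 2 of 15 higher and 9 of 17 lower regions after NaBu. Their shares over all called regions were 16.5% and 27.1% after NaPr and 17.5% and 33% after NaBu. Of the tested regions of the 9 genes 17.4% held AP-1 and 25.6% an E-box in the NaPr experiment, beside 15.6% and 22.1% of all regions, and none held the grainyhead-like or CRE letters in either experiment. The median GC content of the window was 53.8% in higher and 69.5% in lower regions after NaPr, and 50.5% and 56.5% after NaBu. Over all called regions it was 50.5% in higher and 60.5% in lower regions after NaPr, and 50% and 53.5% after NaBu. These are descriptions of letters within 200 bases and were not tested.

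The other genes of the junction were read in the same way, by lists of 16 other claudins, 8 other membrane proteins, 15 other plaque proteins, 11 polarity proteins and 7 adherens junction genes. Of the other claudin regions 3 of 86 were higher and 5 lower after NaPr, and 12 of 79 were higher and 19 lower after NaBu, but 10 of their 183 regions are those of CLDN1, since CLDN16 adjoins it. The other membrane proteins had 1 higher and 4 lower of 46 after NaPr and 7 higher and 10 lower of 46 after NaBu. Other plaque proteins had 11 higher and 10 lower of 228 after NaPr and 52 higher and 64 lower of 261 after NaBu. Polarity proteins had 6 higher and 5 lower of 126, and 23 higher and 29 lower of 153. Adherens junction genes had 6 higher and 4 lower of 149, and 31 higher and 29 lower of 136. In percent, the 5 lists had 2.17 to 4.83% higher and 2.69 to 8.70% lower after NaPr, beside 4.54% and 3.97% of all regions, and 15.0 to 22.8% higher and 18.95 to 24.5% lower after NaBu, beside 19.7% and 17.2%.

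Promoters of these 57 genes were called lower more often than higher, as were those of coding genes in general. After NaPr 9 of 42 tested were lower (21.4%, beside 9.2% of coding promoters) and 0 higher. After NaBu 14 of 39 were lower (35.9%, beside 26.3%) and 1 higher. The number lower in both experiments was not counted over all coding promoters, so the 8 named next have no such share beside them. Over all regions, promoters and others, 51.8% of the NaPr calls had the same direction after NaBu. Among these 57 genes 8 promoters were lower in both, those of CLDN11, MARVELD2 (tricellulin), ILDR1 (angulin-2), TJP3 (ZO-3), CGNL1 (paracingulin), PATJ, the polarity gene CRB3 and CTNNB1 (β-catenin). CRB3 changed most among them after NaPr, from a mean rank of 60.2 to 11.6 (SE of the change 11.5, adjusted p = 0.0341), and it went from 82.9 to 72.1 after NaBu (SE 2.64, adjusted p = 0.0157). CLDN14 was called lower after NaPr, from a mean rank of 36.8 to no peak (adjusted p = 0.0499). Lower after NaBu were also CLDN5, MARVELD3, MAGI1, ARHGEF2, PARD3 and SCRIB, of which MARVELD3 fell by 18.7 points (SE 2.61, adjusted p = 0.00183). The single higher promoter was that of NECTIN2, with a rise of 2.21 points (SE 0.651, adjusted p = 0.0311).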

How the data were processed

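Peak lists of 12 SW480 ATAC-seq libraries were analysed, grouped by the sample labels; 8 CT26 mouse libraries were not used here. The authors aligned reads to GRCh38.p13 with Bowtie2 (2.3.1 in the submitters' processing notes) and called peaks per library with MACS2 (2.1.0) in the ENCODE pipeline. The deposited lists give summit fold enrichment over local background (a ratio), −log10 p and −log10 q; the reads, on which the authors ran DiffBind, were not analysed here. No sample-level column was left unmapped.

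Intervals overlapping by at least 1 bp were merged, and regions with a peak in at least 2 of the 6 libraries of an experiment were ranked within library by −log10 p (average ties, no peak at 0). Ranks do not show a change shared by all peaks of a library. limma 3.58.1 (lmFit, eBayes with trend, two-sided, R 4.3.3) was fitted per experiment and p-values were Benjamini-Hochberg adjusted over all regions; the procedure was tested on simulated data. Background pileup was solved from fold and p as a Poisson test. Genes and starts came from GENCODE 44 (canonical transcripts); no region ran past a chromosome end, and 13 of 13 RefSeq promoter sequences, for 8 of the 9 genes, equalled the genome. Named regions were each promoter, the largest call per gene and compound, switched regions and calls shared by both experiments; regions mentioned beyond these were chosen after their values were seen. The genes and lists were chosen with earlier results of these data known. Sequences over annotated UTRs were not printed. No pair of replicate libraries shared over 0.796% of intervals. Alternatives were other rankings, peak limits, merging, filters, windows, a joint fit, a replicate block and leaving out each library.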

Additional observations from a re-analysis of the deposited data

How the results depend on the processing

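The counts of called regions were recomputed under each alternative. After NaPr, 6 higher regions of 86 became 0 of 86 when regions were ranked by fold enrichment and 1 of 52 on log2 fold enrichment (peak in every library). They became 1 of 86 with the replicate block and 0 to 5 when 1 library was left out. The 9 lower regions of 86 became 3 of 86 by fold enrichment, 0 of 52 on log2 fold enrichment and 0 of 86 with the replicate block. They became 4 of 86 when ranked among a library's own peaks (added once the data had been seen). With 5 kb windows 5 of 59 were lower, and with 1 library left out 0 to 2. Fewer regions were also called over the whole genome. By fold enrichment 2518 of 124067 were higher and 1529 lower after NaPr, beside 5632 and 4923 in the main setting. On log2 fold enrichment 1445 of 65178 were higher and 133 lower. After NaBu, 15 higher regions of 88 became 26 of 122 with summit windows and 8 of 60 on log2 fold enrichment. They stayed at 13 to 17 without single libraries. Over all regions 32724 of 166898 were higher with summit windows and 12187 of 72559 on log2 fold enrichment. The 17 lower regions of 88 became 8 of 48 with the top 50000 intervals and 10 of 60 where a peak in every library was required. They became 6 of 60 on log2 fold enrichment and 29 of 141 with 50 kb windows. Over all regions 11456 of 55411, 14371 of 72559 and 8537 of 72559 were lower in the first 3 of these settings. The smaller counts with fewer intervals, with 5 kb windows or with a peak required in every library include the effect of fewer tested regions (48 to 60). The larger counts with summit windows and 50 kb windows include the effect of more tested regions. The cause of the other moves was not tested.

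Same-numbered treated and untreated libraries did not deviate together (correlations of 0.012, 0.012 and 0.046 for NaPr and 0.022, 0.007 and 0.013 for NaBu), so the replicate block rests on a shared number only; over all regions it left 452 higher and 280 lower after NaPr, and 23434 and 21465 after NaBu. On log2 fold enrichment the median of all regions was 0.12 after NaPr and 0.04 after NaBu. The promoter calls of CLDN3 and CLDN23 after NaBu were kept in all 17 alternatives and that of TJP1 in 16; no promoter call reversed. CLDN1 after NaBu was called higher in 2 alternatives, and CLDN4 after NaBu and CLDN23 after NaPr were called lower in 1 each. The lists' fixed length and the shallower NaPr libraries limit what is listed as a peak.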
